A study of Caenorhabditis elegans with 59 samples.

Results

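The genes that carry out translation were followed here in Caenorhabditis elegans after depletion of the heat shock transcription factor HSF-1. They were taken by symbol: every gene whose WormBase symbol begins with eif-, eef-, ife- or ifg-, and every aminoacyl-tRNA synthetase gene named by 1 letter and ars-1 or ars-2. The rule found 68 genes among the 15698 genes listed in at least 1 of the 3 deposited tables, and all 68 were in all 3 tables and passed the filter on low values. They comprise 25 initiation factors (eif-), 6 cap-binding genes (ife-1 to ife-5 and ifg-1), 6 elongation factors (eef-) and 31 tRNA synthetases.

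Translation begins when eIF4E, the protein that holds the 5′ cap of the mRNA, and its scaffold eIF4G recruit the small ribosomal subunit, which eIF2 loads with the initiator tRNA and which eIF3 organises. In C. elegans, ife-1 to ife-5 encode the forms of eIF4E and ifg-1 encodes eIF4G. IFE-1, IFE-3 and IFE-5 are known from the germline, where IFE-1 is bound by the P granule protein PGL-1 and serves sperm formation, whereas IFE-2 and IFE-4 are known from the soma. Elongation factor eEF1A brings charged tRNA to the ribosome and eEF2 moves the ribosome on by a codon, while each tRNA synthetase couples an amino acid to its tRNA.

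RNA was sequenced from whole animals in 59 libraries, with 3 per group except where stated. In all strains the plant F-box protein TIR1 was expressed from the eft-3 promoter, which drives it in the soma, and auxin makes TIR1 degrade proteins that carry a degron. JTL611 (hsf-1::aid::gfp, TIR1) and the control CA1200 (TIR1 without a degron) have an otherwise wild-type background and are fertile. They were grown at 20 °C for 51 h and then, as young adults, kept on auxin or on ethanol (mock) for 8 or 24 h. JTL667 carries glp-1(e2141), which leaves the animals with almost no germline at 25 °C, and JTL670 carries fem-3(q20), whose germline makes only sperm at 25 °C. Both of these carry hsf-1::aid::gfp and TIR1 and were grown from L1 larvae at 25 °C for 48 h, to young adults. From day 1 of adulthood they were kept on auxin or ethanol for 8, 24 or 48 h. No control without the degron was sequenced at 25 °C, so in these strains auxin and HSF-1 depletion cannot be told apart. The glp-1(e2141) group on auxin for 48 h held 2 libraries, those of replicates 1 and 3. The promoter of TIR1 is that of eef-1A.1, itself a member.

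The libraries held from 9131588 to 23867943 reads on listed genes. The library of mock-treated glp-1(e2141) at 24 h, replicate 1, had the fewest, with 26.4% of its reads on rRNA genes. For 18 of the 59 samples (fem-3(q20) replicates 2 and 3 and glp-1(e2141) replicate 3) the title and the agent tag name opposite treatments, and the title, which the table columns follow, was used. By title, the summed level of 10 chaperone genes known as HSF-1 targets did not overlap between auxin and mock in either sterile strain at any hour, with 519 to 739 CPM against 1534 to 1767 CPM in glp-1(e2141) and 2871 to 3315 CPM against 4762 to 5781 CPM in fem-3(q20) at 8 h. Markers fit the strain names: the summed level of 8 germline markers ran from 15.7 to 53.1 CPM (counts of a gene scaled to the total of its library) in glp-1(e2141) and from 1606 to 2712 CPM in fem-3(q20), and that of 8 sperm markers reached 21.2 CPM at most in glp-1(e2141) and was 1953 CPM at least in fem-3(q20). Of the 10 chaperone genes, 9, 9 and 7 were lower on auxin in glp-1(e2141) at 8, 24 and 48 h and 5, 5 and 6 in fem-3(q20). None of the 8 of them tested in the fertile strains passed the test at either hour, although at 8 h their summed level was 5768 to 8770 CPM in JTL611 on auxin against 11507 to 12555 CPM in CA1200 on auxin, without overlap. At 24 h these groups overlapped, with 5174 to 10561 CPM against 9867 to 13751 CPM. A gene is called higher or lower below at an adjusted p under 0.05 in limma (Benjamini-Hochberg over all genes tested) with a mean of at least 2 CPM. That mean is over all libraries of its table, which holds both sterile strains together. Nothing in the labels says that replicates were separate cultures, so the p-values measure the spread between these samples.

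Per kilobase of exon, the elongation factors were the most abundant members. In the table of the sterile strains, their mean levels ran from 69.4 CPM per kb for eef-1B.2 to 2081 CPM per kb for eef-1A.1, with a median of 838. The medians were 77.4 CPM per kb for the cap-binding genes, 50.5 for the initiation factors and 28.9 for the synthetases. After eef-1A.1 came eef-2 with 944 CPM per kb, eef-1B.1 with 880 and eef-1G with 796. The most abundant synthetase was sars-1 (seryl-tRNA synthetase) with 125 CPM per kb and the lowest mean over both strains was that of nars-2 with 5.91. This order mixes strains that differ: within glp-1(e2141) the lowest member was ife-5 with 1.28 CPM per kb, within fem-3(q20) it was ife-4 with 5.76, and eef-1A.1 and eef-2 led in both. In the fertile strains at 8 h, eef-1A.1 again led with 8933 CPM per kb, and the lowest level was that of ife-4 with 3.70 CPM per kb. The 11 subunits of eIF3 lay between 85.1 and 202 CPM per kb in that table, above the 5 subunits of eIF2B, which exchanges the guanine nucleotide of eIF2 and had levels from 25.2 to 52.1. The tables were normalized separately, so levels in different tables are set side by side and not tested.

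The largest differences among the members lay between the sterile strains, in the cap-binding family. ife-1, ife-3 and ife-5 were lower in mock-treated glp-1(e2141) than in fem-3(q20) at all 3 hours, and ife-2 and ife-4 were higher at all 3 hours. For ife-1 (chromosome III, 13343417-13344618, WBcel235), fem-3(q20) libraries on mock had 317, 312 and 386 CPM at 8 h, and glp-1(e2141) libraries had 27.6, 22 and 24.7 CPM. Every library of fem-3(q20) was thus above every library of glp-1(e2141), by 13.6-fold on average (log2 fold change -3.76, SE 0.16). The log2 difference was -4.72 (SE 0.16) at 24 h and -4.05 (SE 0.16) at 48 h.

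For ife-3 (chromosome V, 6584-7828), the mock libraries of fem-3(q20) at 8 h had 136, 156 and 205 CPM, against 24.6, 22.1 and 27.2 CPM in glp-1(e2141). The groups did not overlap, and the log2 difference was -2.73 (SE 0.30) at 8 h, -4.10 (SE 0.30) at 24 h and -3.30 (SE 0.30) at 48 h. At 24 h the shallow library of glp-1(e2141), replicate 1, had 5.62 CPM, against 24.1 and 19.3 CPM in the others.

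For ife-5 (chromosome II, 12280660-12284139), the fem-3(q20) libraries had 27, 25 and 31.7 CPM on mock at 8 h. Those of glp-1(e2141) had 0.252, 1.01 and 1.04 CPM, from 3, 18 and 19 reads. The log2 difference was -5.14 at 8 h, -6.87 at 24 h and -6.23 at 48 h, each with an SE of 0.60, and its size depends on the prior count because the lower group is close to zero. ife-1 and ife-5 encode similar proteins, and reads shared between them could have been split by the counting.

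The other cap-binding genes included both directions. For ife-2 (chromosome X, 381385-382709), the mock libraries at 8 h had 65.8, 61.0 and 67.3 CPM in glp-1(e2141) and 35.6, 23.0 and 25.4 CPM in fem-3(q20), with log2 differences of 1.23, 1.07 and 1.07 at 8, 24 and 48 h (SE 0.13). ife-4 (chromosome X, 1104212-1106251) had 14.4, 11.5 and 14.0 CPM against 7.06, 4.66 and 5.84 CPM, and its differences were 1.18, 1.04 and 0.88 (SE 0.20). For both genes the strains did not overlap at any hour. The eIF4G gene ifg-1 (chromosome II, 8217222-8222396) had 289, 287 and 249 CPM in glp-1(e2141) and 499, 587 and 581 CPM in fem-3(q20) at 8 h. Its log2 difference was -1.01 at 8 h, -1.68 at 24 h and -1.31 at 48 h (SE 0.13). With each library centred on its median, ifg-1 had -0.22 (adjusted p = 0.12 in limma) at 8 h, -0.68 at 24 h and -0.36 at 48 h.

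**Figure D1:**
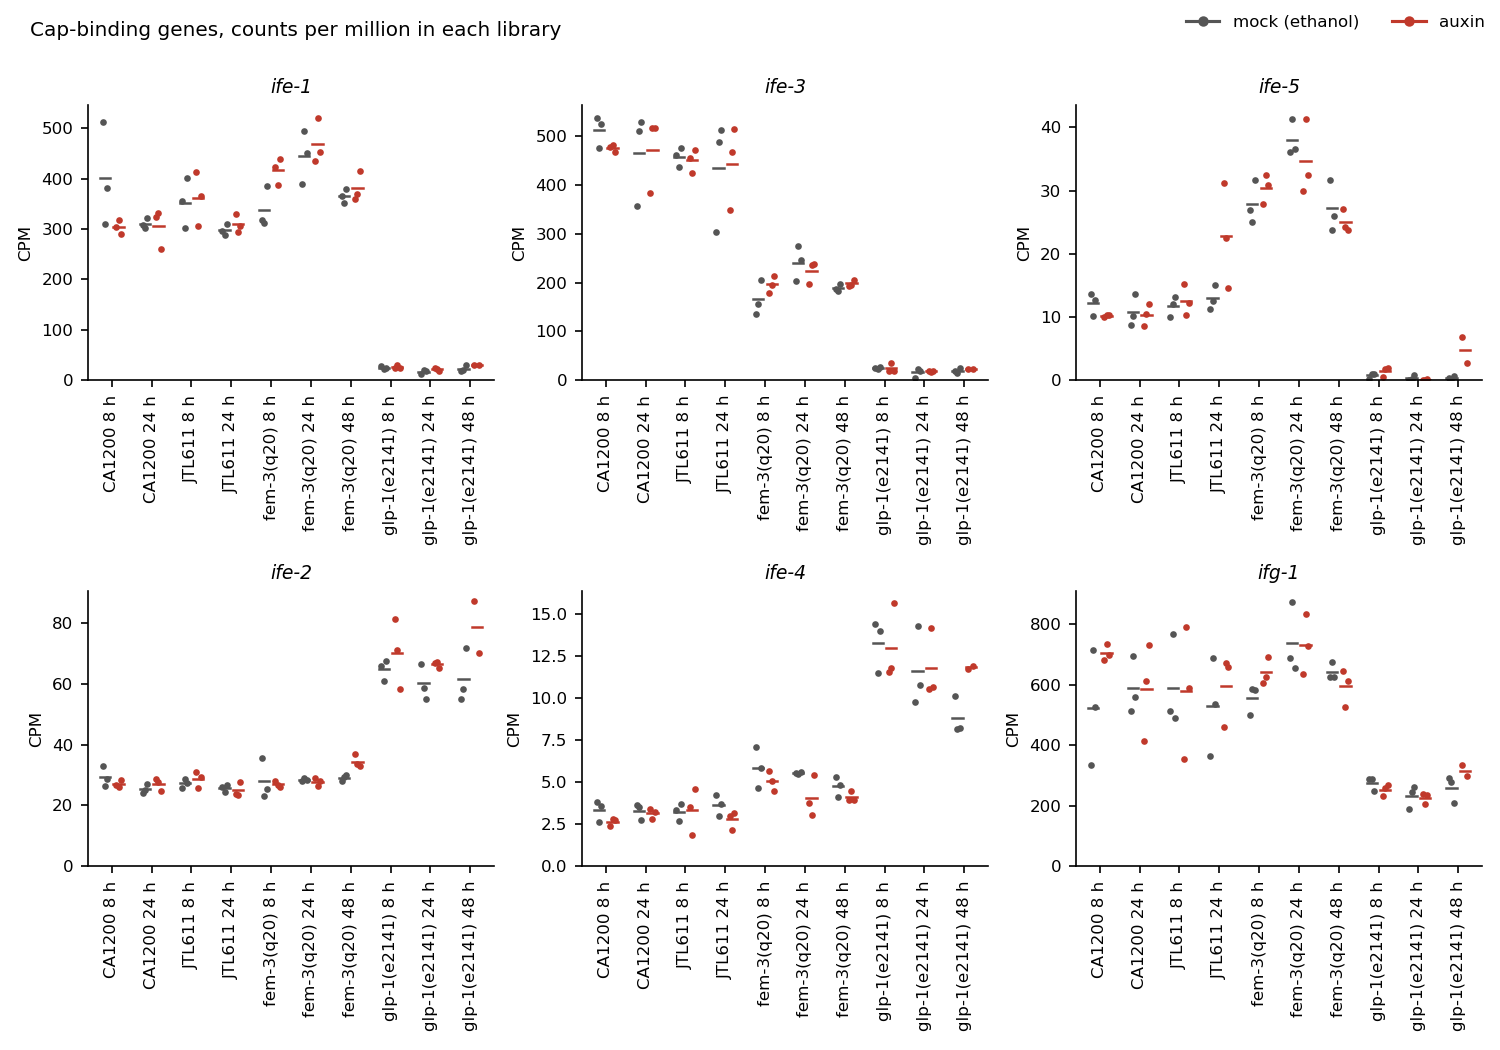
Levels of the 6 cap-binding genes in each library (points, CPM, on linear axes from 0) by strain, hour and agent, with the mean of each group as a line; grey marks mock and red auxin. ife-1, ife-3 and ife-5 are far lower in glp-1(e2141) than in fem-3(q20), and ife-2 and ife-4 are highest in glp-1(e2141). The fertile strains (CA1200, JTL611) come from tables normalized separately from that of the sterile strains.

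The make-up of the eIF4E family was also taken within each library, which removes any difference of scale. Of the summed level per kb of the 5 ife genes, ife-1, ife-3 and ife-5 made up 94.6% to 95.8% in the 12 CA1200 libraries and 94.2% to 96.0% in the 12 JTL611 libraries. In the 18 libraries of fem-3(q20) their share ran from 90.3% to 95.7%, with a median of 93.9%. In the 17 libraries of glp-1(e2141) it ran from 16% to 38.9%, with a median of 32.9%, and ife-2 alone made up 52.6% to 73.2%. The lowest share was that of the shallow library at 24 h. Among the strains with a germline, ife-3 was by median the larger part in the fertile strains (54.6% in CA1200 and 51.2% in JTL611). In fem-3(q20) it was ife-1 (median 60.6%). ife-1 was above ife-3 in replicate 1 of CA1200 on mock at 8 h (48.8% against 45.5%). The same held in replicate 1 of JTL611 on auxin at 8 and 24 h and on mock at 24 h. The germline markers named above moved with the 3 genes, and 4 neuronal markers were also higher in glp-1(e2141), from 150 to 220 CPM against 80.1 to 114 CPM in fem-3(q20). Their part in these shares was not tested. In whole animals fewer cells of a type and less RNA per cell cannot be told apart.

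A second within-family share concerned eEF1A, which has 2 genes with nearly identical coding sequences, eef-1A.1 (chromosome III, 6970026-6971712) and eef-1A.2 (chromosome X, 7823654-7825769). eef-1A.2 made up 0.866% to 1.49% of their summed level per kb in CA1200 and 0.891% to 1.90% in JTL611. Its share was 9.14% to 14.8% in fem-3(q20) and 19.2% to 33.5% in glp-1(e2141), with no overlap between these strains. In the sterile strains the summed level of 4 body muscle markers was 1495 to 5567 CPM in glp-1(e2141) and 468 to 2289 CPM in fem-3(q20), and its part in these shares was not tested. Reads that fit both genes could have been split or left out by the counting, so the shares carry that uncertainty. The fertile and sterile strains also differ in growth temperature and in table.

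**Figure D2:**
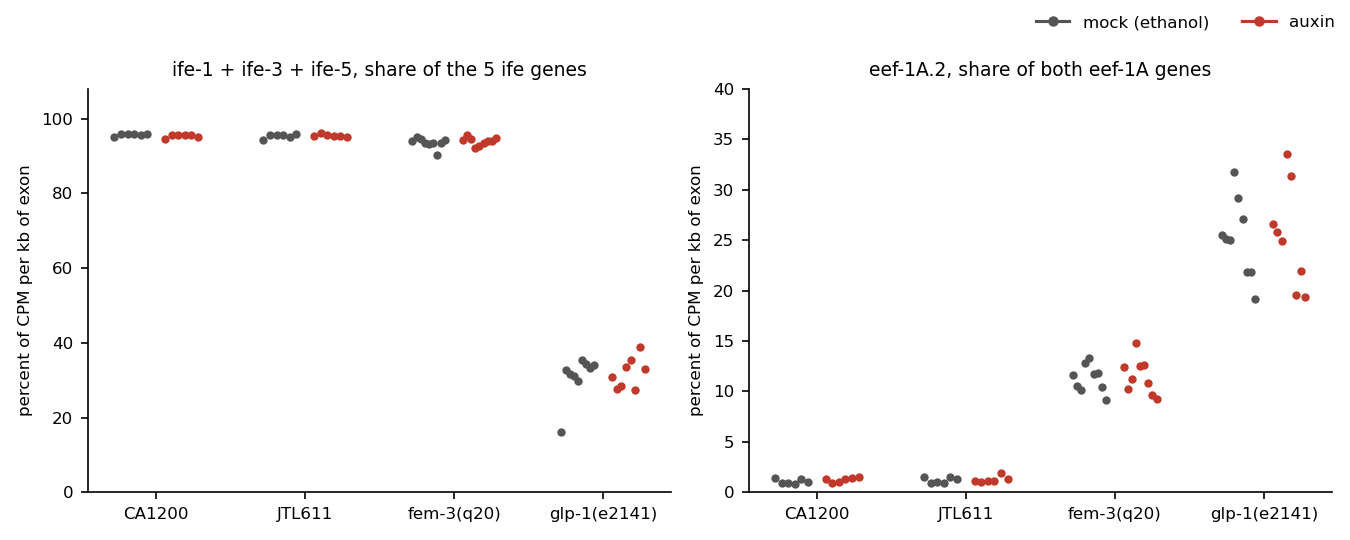
Share of ife-1, ife-3 and ife-5 in the summed CPM per kb of the 5 ife genes (left) and of eef-1A.2 in that of both eef-1A genes (right), in percent, for each of the 59 libraries by strain; grey marks mock and red auxin, all hours together. The left share lies at 90.3% or above in every library outside glp-1(e2141) and at 38.9% or below in glp-1(e2141).

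In the elongation factors the strains differed less on the deposited scale. For eef-1A.1 the mock libraries at 24 h had 1129, 1979 and 2863 CPM in glp-1(e2141) and 3578, 4642 and 4963 CPM in fem-3(q20). It was lower in glp-1(e2141) at 24 h (log2 -1.23, SE 0.23) and 48 h (-0.59, SE 0.23) and had -0.39 (SE 0.23, adjusted p = 0.13 in limma) at 8 h. eef-1A.2 was higher at 8 h (0.80, SE 0.23) and 48 h (0.93, SE 0.23) and had 0.25 at 24 h. Its mock libraries at 48 h had 1413, 1411 and 1038 CPM in glp-1(e2141) and 596, 730 and 682 CPM in fem-3(q20), without overlap. Lower at 24 and 48 h were also eef-1B.2 and eef-1G, with -0.53 and -0.54 for eef-1B.2 and -0.55 and -0.33 for eef-1G. eef-2 and eef-1B.1 passed the test at no hour on that scale. Their differences were 0.02, -0.27 and 0.30 for eef-2 and 0.02, 0.02 and -0.05 for eef-1B.1. When each library was centred on its median instead, eef-1A.1 was reversed at 8 and 48 h. eef-1B.2 and eef-1G were reversed at all 3 hours. No direction is therefore given for eef-1A.1, eef-1B.2 and eef-1G without the scale. The directions of ife-1 to ife-5 and eef-1A.2 were the same. With centred libraries 5 of the 6 elongation factors were higher and 0 lower at each hour, with medians of 0.71, 0.59 and 0.76. Among them were eef-2 (0.72 and 1.25 at 24 and 48 h) and eef-1B.1 (1.01 and 0.90). In that fit 10373, 10489 and 10383 of the 14269 genes tested were called at the 3 hours.

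Of all 68 members, 52 were lower and 3 higher in glp-1(e2141) at 8 h, where 36.9% of all genes tested were lower and 31.6% higher. At 24 h 58 were lower and 2 higher, against 41.9% and 31.1% of all genes, and at 48 h 58 were lower and 3 higher, against 40.8% and 29.7%. The median log2 difference of the members was -0.71, -1.20 and -0.93 at the 3 hours, beside 0.02, -0.36 and -0.25 for all genes. The split depends on the scale: with each library centred on its median, 19 members were higher and 20 lower at 8 h, 21 and 30 at 24 h, and 20 and 26 at 48 h. These 39, 51 and 46 called members stand beside 10373, 10489 and 10383 of the 14269 genes tested. The share of members called was thus below that of all genes at 8 and 48 h and near it at 24 h. The same background applies to the centred counts by role below. That centring raised the median of all genes to 0.82, 0.64 and 0.70. Relative to the median of all genes, the members' median was -0.73, -0.84 and -0.68 under both scalings, and 60, 59 and 59 members lay below it. Of the 60 members lower at any hour, 51 were lower at all 3. The members called at no hour on the deposited scale were eef-1B.1, eef-2, eif-3.J, sars-1 and yars-1. With centred libraries each of them was called higher at 24 h, by 1.01, 0.72, 0.71, 0.88 and 0.84.

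Among the initiation factors, 21, 23 and 24 of 25 were lower in glp-1(e2141) at 8, 24 and 48 h, with medians of -0.65, -1.17 and -0.98. With centred libraries 9, 12 and 9 were lower and 4, 3 and 4 higher, with medians of 0.14, -0.18 and -0.02. The largest was eif-2D, a factor that can deliver tRNA to the ribosome outside eIF2, with log2 differences of -1.94, -2.46 and -2.19 (SE 0.21). Its mock libraries at 48 h had 9.91, 10.5 and 14.4 CPM in glp-1(e2141) and 59.2, 42.6 and 57.7 CPM in fem-3(q20). eif-2A, an alternative initiation factor, had -1.70 at 8 h and -2.18 at 24 h (SE 0.13). Of the 11 eIF3 subunits 10 were lower at each hour, with eif-3.I at -1.44 at 8 h and -1.61 at 48 h and eif-3.C at -1.48 at 8 h, while eif-3.J had 46.9, 49.7 and 53.2 CPM in glp-1(e2141) and 43.5, 41.4 and 55.0 CPM in fem-3(q20) at 8 h. Of the 5 eIF2B subunits 3, 4 and 5 were lower at the 3 hours, and eif-2Bgamma had -1.79 at 24 h and -1.88 at 48 h. With centred libraries 5, 6 and 5 eIF3 subunits were lower and 1, 1 and 3 higher, among them eif-3.E (0.27) and eif-3.F (0.46) at 48 h, and 2, 3 and 2 eIF2B subunits were lower and 1, 1 and 0 higher.

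Of the 31 synthetases, 27, 28 and 27 were lower, with medians of -0.83, -1.26 and -1.01. A split into cytosolic and mitochondrial enzymes was planned but could not be made without product names. The number in the symbol was used instead and does not stand for a compartment. All 11 synthetases numbered 2 were lower at each hour, with medians of -1.04, -1.46 and -1.84, and 16, 17 and 16 of the 20 numbered 1, with medians of -0.66, -1.06 and -0.79. With centred libraries 8, 14 and 13 synthetases were lower and 8, 11 and 9 higher. Of those numbered 2, 4, 6 and 8 were then lower and 1, 3 and 1 higher, with medians of -0.25, -0.46 and -0.89, and lars-2, nars-2 and rars-2 were lower and sars-2 higher at all 3 hours. Of those numbered 1, 4, 8 and 5 were then lower and 7, 8 and 8 higher. The largest at 8 h was lars-2, the mitochondrial leucyl-tRNA synthetase, at -2.14 (SE 0.19), with 10.3, 12.6 and 15 CPM in glp-1(e2141) and 46.8, 56.6 and 64.9 CPM in fem-3(q20). lars-1, its cytosolic counterpart, followed at -2.09 (SE 0.13). At 24 h the largest was wars-1, for tryptophan, at -2.72 (SE 0.27), and the lowest of its glp-1(e2141) libraries, 6.60 CPM against 16.9 and 22 CPM, was the shallow one. At 48 h it was pars-2, for proline, at -2.85 (SE 0.33). Other large differences were those of nars-2 (-2.57 at 24 h) and fars-2 (-2.15 at 48 h). The tyrosine enzyme yars-1 and the serine enzyme sars-1 passed the test at no hour on the deposited scale. With centred libraries both were higher at 24 h (0.84 and 0.88). sars-1 had 197, 189 and 180 CPM in glp-1(e2141) against 177, 189 and 190 CPM in fem-3(q20) at 8 h.

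**Figure D3:**
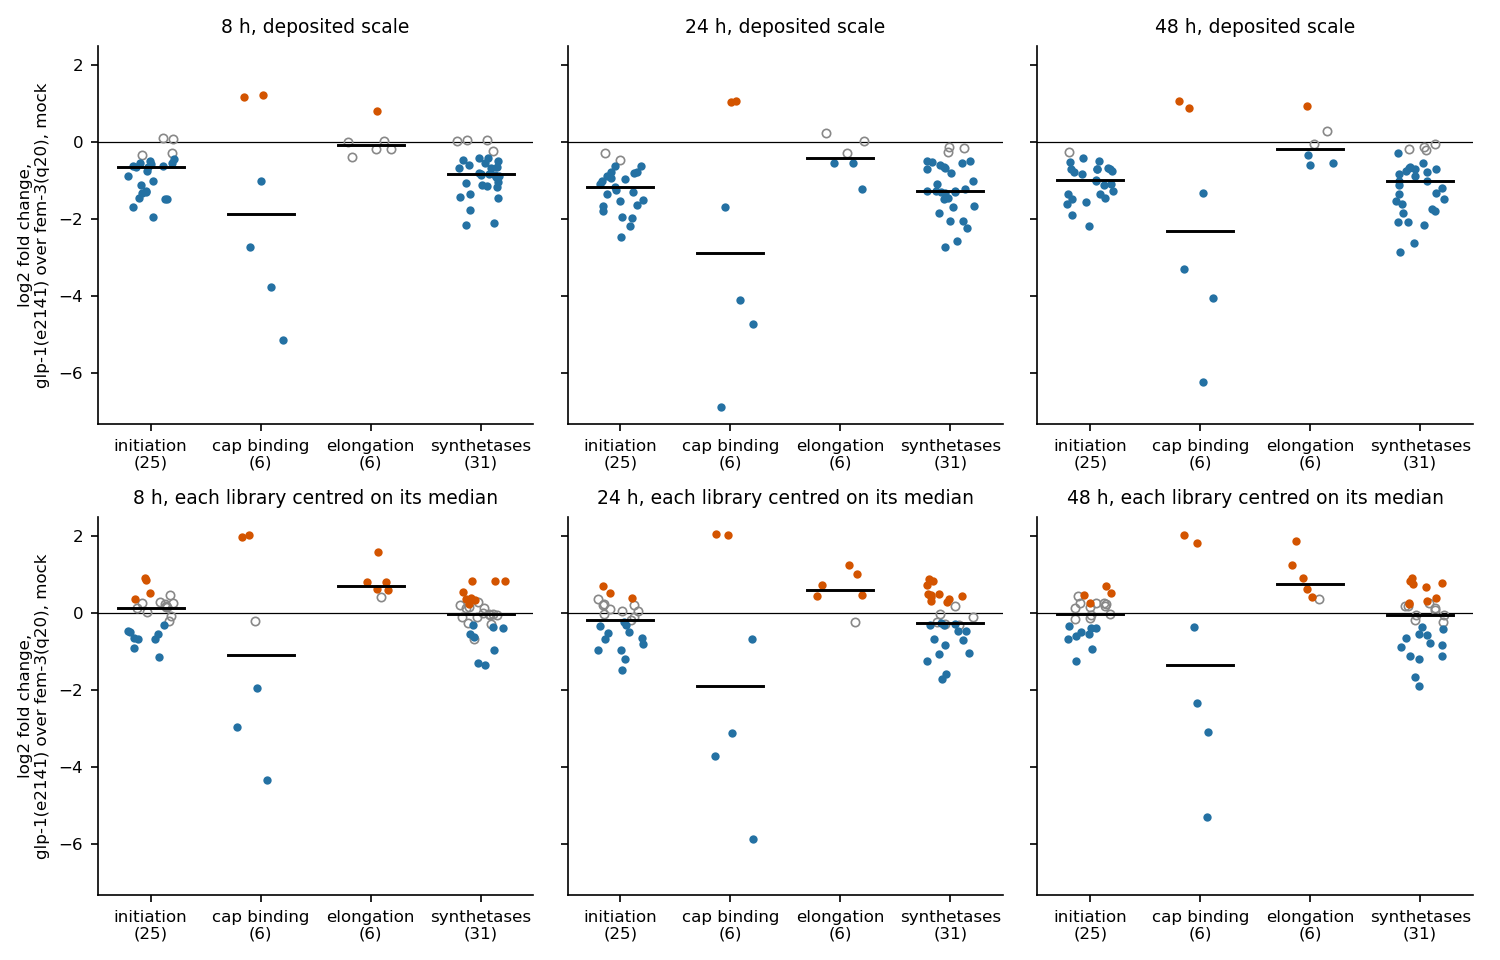
Log2 fold change of each of the 68 members, mock-treated glp-1(e2141) over fem-3(q20), by role at 8, 24 and 48 h, on the deposited scale (top) and with each library centred on its median (bottom). Filled points passed the test (orange higher, blue lower), open points did not, and lines are medians. The cap-binding genes spread widest under both scalings, and at each hour all genes move up by the same amount when libraries are centred.

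Other genes of translation differed in the same comparison. Of 32 listed factors and regulators outside the name rule, 29 were tested, of which 23, 23 and 22 were lower and 4, 4 and 5 higher in glp-1(e2141) at 8, 24 and 48 h, with medians of -0.72, -1.13 and -1.11. Of 81 cytosolic ribosomal protein genes, 6 were lower at 8 h, 76 at 24 h and 79 at 48 h, with medians of -0.11, -0.99 and -0.93. At 8 h the ribosomal proteins therefore had a median near that of all genes, 0.02, while the members had -0.71. Centring adds the same amount to every gene, so the distance between these medians does not depend on it. The medians themselves and the counts do depend on it, and for both lists they were taken on the deposited scale only. With centred libraries the median of all genes was 0.82, 0.64 and 0.70 at the 3 hours. On the deposited scale 36.9%, 41.9% and 40.8% of all genes tested were lower and 31.6%, 31.1% and 29.7% higher.

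HSF-1 depletion in the fertile strains, JTL611 on auxin against CA1200 on auxin, gave no called member at either hour, and no gene of all those tested was called (0%). Same-numbered libraries deviated together at both hours, and with only those groups fitted and the replicate number as a block the share of all genes called was 0% at 8 h and 0.937% at 24 h. With the block in the fit of the whole table these shares were 0.00931% and 0.0781%. At 8 h, 1 member had an unadjusted p under 0.05, beside 2.41% of all genes, and at 24 h 2 members had one, beside 3.16%. All 68 members were within a log2 difference of 0.50 at 8 h and 67 were within it at 24 h, where the median SE was 0.11 and 0.17. In the elongation factors the values at 24 h ran from -0.29 for eef-1B.2 to -0.03 for eef-1A.2.

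The widest value at 24 h was that of ife-5. Its libraries had 31.3, 22.5 and 14.7 CPM in JTL611 on auxin, 8.64, 10.4 and 12.1 CPM in CA1200 on auxin, 11.3, 12.6 and 15 CPM in JTL611 on mock and 8.67, 10.1 and 13.6 CPM in CA1200 on mock. JTL611 on auxin lay above CA1200 on auxin in every library, with replicate 1 highest, and overlapped JTL611 on mock. The log2 difference from CA1200 on auxin was 1.07 (SE 0.27) with an unadjusted p of 0.0017 in limma, which did not pass the adjustment over all genes. With only those groups fitted and the replicate block, where 96 genes of all were called, its adjusted p in limma was 0.000795 and it was the only member called.

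Within JTL611 at 24 h, auxin against mock, no member was called either, and the 4 with an unadjusted p under 0.05 were ife-5 (0.75), lars-1 (0.53), iars-2 (0.40) and iars-1 (0.37), beside 4.61% of all genes. The lars-1 libraries had 576, 476 and 350 CPM on auxin and 272, 376 and 315 CPM on mock, and the groups overlapped. At 8 h JTL611 gave 0 called members and none with an unadjusted p under 0.05, beside 0% and 1.86% of all genes. Auxin alone in CA1200 gave 0 called members at 8 and 24 h, beside 0.00931% and 0.00976% of all genes, and none with an unadjusted p under 0.05, beside 3.93% and 1.41%. The degron alone, JTL611 against CA1200 on mock, likewise gave 0 called members, beside 0% at both hours, and none with an unadjusted p under 0.05, beside 1.35% and 0.761%.

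In glp-1(e2141), no member was called for auxin against mock at 8 h (0.428% of all genes called) or at 24 h (0.659%). At each of these hours 5 members had an unadjusted p under 0.05, beside 7.45% and 16% of all genes. Those at 8 h were all higher on auxin and comprised eef-1B.2 (0.44), eef-1B.1 (0.35), eif-2alpha (0.32), eif-4A3 (0.27) and cars-1 (0.25). Those at 24 h were fars-1, iars-2 and aars-2 on the lower side and ife-1 (0.35) and eif-3.G (0.27) on the higher. Leaving out auxin 8 h replicate 3, mock 24 h replicate 2 or mock 24 h replicate 3 gave 1 called member at the hour of that library.

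At 48 h in glp-1(e2141), 6 members were higher on auxin and none lower, against 2.92% and 1.94% of all genes (4.86% in either direction). They were ife-5, the synthetases lars-1, iars-1, tars-1 and sars-1 and the eIF3 subunit eif-3.G, and the median of all members was 0.17 beside 0.00 for all genes. Of these, ife-5 met the limit of 2 CPM only through fem-3(q20). Its mean was 1.28 CPM per kb in glp-1(e2141) and 35.9 in fem-3(q20). The calls rest on 2 auxin libraries: without auxin replicate 1 no member was called, although all 6 values stayed above 0, and 255 genes of all were called in place of 694. Fitted on the 5 libraries alone, no member was called, and 16 genes were.

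The leucine enzyme lars-1 (chromosome III, 4181549-4186801) had 212 and 171 CPM on auxin and 104.5, 132 and 121 CPM on mock at 48 h, a log2 difference of 0.68 (SE 0.15, adjusted p = 0.0051 in limma). The isoleucine enzyme iars-1 (chromosome IV, 10368601-10373136) had 205 and 158 CPM against 124, 115 and 114 CPM (0.62, SE 0.12, adjusted p = 0.0020 in limma). For both, replicate 1 was the higher auxin library and the groups did not overlap. eif-3.G had 93.6 and 88.2 CPM against 58.9, 65.2 and 52.1 CPM (0.63, SE 0.14). tars-1, for threonine, had 224 and 219 CPM against 172, 194 and 151 CPM (0.37, SE 0.10), and sars-1 had 266 and 255 CPM against 200.1, 205 and 203 CPM (0.36, SE 0.10).

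ife-5 had 6.85 and 2.79 CPM on auxin, from 126 and 38 reads, and 0.372, 0 and 0.633 CPM on mock, from 6, 0 and 10 reads. All auxin libraries lay above all mock libraries, but far below the 23.8 to 31.7 CPM of fem-3(q20) at that hour. The log2 difference was 3.65 (SE 0.67, adjusted p = 0.0011 in limma) and moved to 2.64 with a pseudocount of 0.5. The 8 germline markers summed to 35.7 and 25.2 CPM in the auxin libraries and to 40.6, 38.9 and 38.6 CPM in the mock libraries, and the 8 sperm markers to 11.5 and 9.98 CPM against 21.2, 17.6 and 19 CPM. In each group 4 of the sperm markers had no read. The part of germline cells in the ife-5 values was not tested. ife-1, which has a similar sequence, had 30.8 and 29.6 CPM against 17.6, 20.2 and 29.7 CPM, with 0.46 (SE 0.18, adjusted p = 0.17 in limma), and no other cap-binding gene or elongation factor passed the test.

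**Figure D4:**
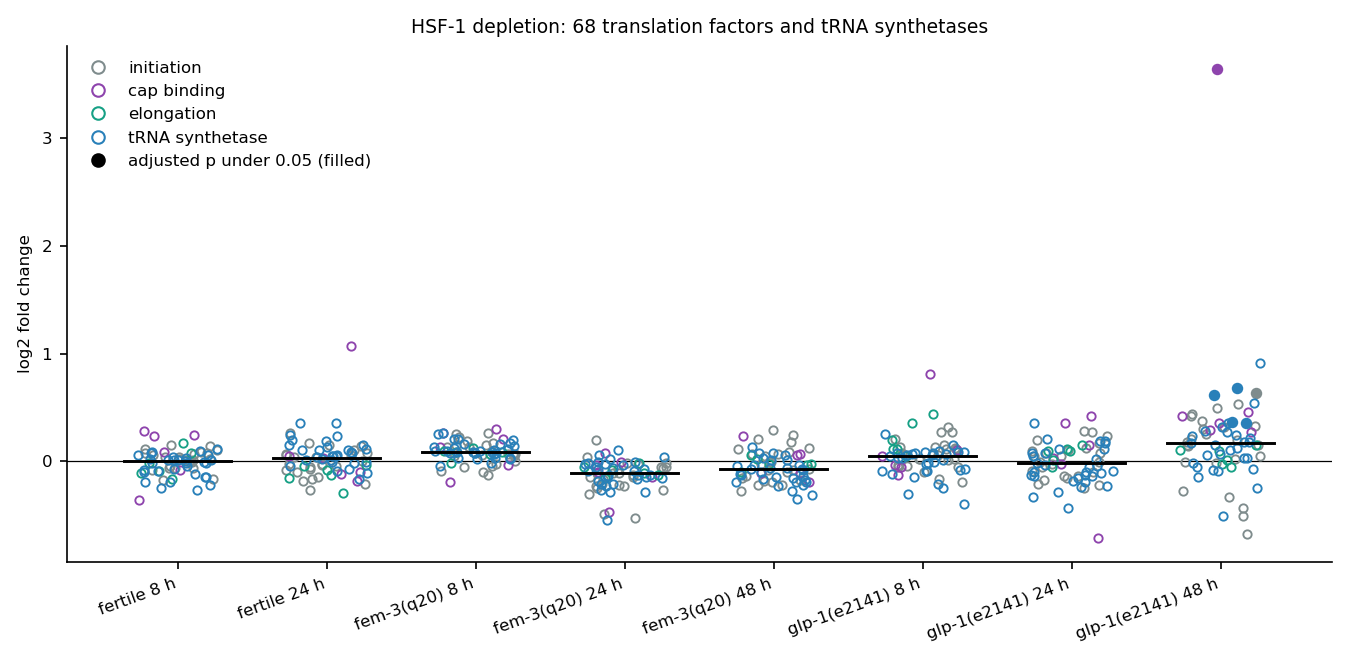
Log2 fold change of each of the 68 members for HSF-1 depletion, JTL611 over CA1200 on auxin in the fertile strains and auxin over mock in the sterile strains, by hour; colours give the role, filled points passed the test and lines are medians. The 6 filled points are all in glp-1(e2141) at 48 h, with ife-5 at 3.65.

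In fem-3(q20), no member was called for auxin against mock at 8, 24 or 48 h, where 0.224%, 0.273% and 2.23% of all genes were called. The numbers with an unadjusted p under 0.05 were 0, 10 and 2, beside 4.03%, 6.57% and 11% of all genes. The 10 at 24 h were all lower on auxin, led by nars-2 (-0.54), eif-3.H (-0.53), eif-2D (-0.49) and ife-4 (-0.47), and the median of the members was -0.11 beside 0.02 for all genes. For eif-3.H the libraries at 24 h had 25.2, 26.2 and 22.8 CPM on auxin and 32.0, 39.5 and 35.7 CPM on mock, without overlap, and the adjusted p was 0.10 in limma. Same-numbered libraries deviated together here too, and with only those groups and a replicate block 13 members were lower, led by eif-2D and eif-3.H (adjusted p of 0.00084 and 0.0025 in limma), and eif-2A was higher by 0.20, beside 12% of all genes called in that fit. The fit of the whole table with the block called none of them, beside 0.392% of all genes.

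Whether auxin acted differently in the sterile strains was tested as a difference of effects. No member passed at 8, 24 or 48 h, where 0%, 0.035% and 0.399% of all genes did. At 48 h 15 members had an unadjusted p under 0.05, beside 8.83% of all genes, and the median was 0.23 higher in glp-1(e2141). ife-5 came closest with 3.76 (SE 0.90, adjusted p = 0.058 in limma), followed in size by pars-2 with 1.13 (SE 0.50), and lars-1 and iars-1 both had 0.54. Without mock 48 h replicate 3 of glp-1(e2141) 1 member passed. The calls in glp-1(e2141) at 48 h are therefore not shown to be particular to that strain.

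Between 8 and 48 h within glp-1(e2141), the effect of auxin changed for 2 members, a count too small to set apart from the 1.81% of all genes. They were lars-1, with a difference of 0.76 (SE 0.20, adjusted p = 0.041 in limma), and iars-1, with 0.71 (SE 0.16, adjusted p = 0.018 in limma). At 8 h the lars-1 libraries had 52.3, 51.3 and 61.1 CPM on auxin and 58.4, 56.2 and 59.0 CPM on mock. Leaving out auxin 48 h replicate 1, auxin 8 h replicate 2 or mock 8 h replicate 1 left 0 called. Leaving out auxin 8 h replicate 1, mock 8 h replicate 2 or 3, or mock 48 h replicate 3 left 1, and the others left 2 or 3. In fem-3(q20) the same difference gave 0 called members, beside 0.533% of all genes, and 4 members had an unadjusted p under 0.05, beside 6.73%.

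Without auxin, some members were also called between hours in glp-1(e2141). From 8 to 24 h 8 members fell and 1 rose, beside 8.21% and 5.05% of all genes. From 8 to 48 h 10 fell and 3 rose, beside 12.7% and 10.1%. In either direction, the share of members called was near that of all genes at 24 h (13.3%) and below it at 48 h (22.8%). The members are therefore not shown to change more often than other genes. Of the 14 that fell at either hour, ears-1, eif-3.K, kars-1 and vars-1 fell at both. lars-1 was the member that rose at both: its mock libraries had 58.4, 56.2 and 59.0 CPM at 8 h, 105.2, 71.4 and 69.2 CPM at 24 h and 104.5, 132 and 121 CPM at 48 h, with log2 changes of 0.47 and 1.04 (SE 0.13). The 105.2 CPM at 24 h is from the shallow library, without which that change was 0.28 (adjusted p = 0.18 in limma) and was no longer called. At 48 h qars-1, for glutamine, rose by 0.40 and eef-2 by 0.42.

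The largest fall over 48 h was that of pars-2 (-1.40, SE 0.33), whose libraries had 9.83, 7.82 and 5.07 CPM at 8 h and 5.76, 1.74 and 1.90 CPM at 48 h and overlapped. fars-2, for phenylalanine, had 24.4, 27 and 23.7 CPM at 8 h and 12, 14.5 and 12.5 CPM at 48 h, without overlap (-0.95, SE 0.15), and iars-2 had 34.6, 36.2 and 38.6 CPM and then 23.5, 21.2 and 15.8 CPM (-0.87, SE 0.14). kars-1, for lysine, changed by -0.61 at both hours and eif-3.K by -0.53 and -0.71. ife-4, eif-2Bgamma, sars-2, vars-1 and ears-1 fell by between 0.36 and 0.58 on the log2 scale. The further members that fell at 24 h were dars-2 (-0.96), ife-1 (-0.56), eif-3.E (-0.44) and dars-1 (-0.39). Without the shallow library ife-1 had -0.36 (adjusted p = 0.20 in limma), and without mock 24 h replicate 3 dars-2 had -0.52 (adjusted p = 0.17 in limma).

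These counts moved with single libraries. From 8 to 24 h the count of 9 became 5 without mock 24 h replicate 1, mock 8 h replicate 2 or mock 8 h replicate 3, and 18 without mock 24 h replicate 3. From 8 to 48 h the count of 13 became 8 without mock 8 h replicate 3. Over the same hours 64 and 75 of 81 ribosomal protein genes fell in mock-treated glp-1(e2141), beside 8.21% and 12.7% of all genes. Their medians were -0.70 and -0.92, while the members had medians of -0.15 and -0.17. The 4 body muscle markers had summed levels of 3294 to 5567 CPM at 8 h on mock, above their 1635 to 1894 CPM at 48 h. The hypodermis markers, of which 2 were listed, had 3544 to 4727 CPM at 8 h, far above their 181 to 239 CPM at 48 h, and the sperm markers had 4.14 to 4.79 CPM, below their 17.6 to 21.2 CPM at 48 h. The part of these cell types in the changes of the members was not tested.

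In mock-treated fem-3(q20), no member was called from 8 to 24 h, beside 7.42% of all genes, although 19 had an unadjusted p under 0.05, all higher, beside 23.1%. The members' median was 0.20, and that of all genes was 0.17. Without mock 24 h replicate 1 the count was 4 and without mock 8 h replicate 3 it was 3. From 8 to 48 h 2 members rose, a share below the 8.14% of all genes, and none fell, beside 9.21%. They were lars-1 (0.46, SE 0.13), with 231, 247 and 265 CPM at 8 h and 356, 336 and 329 CPM at 48 h, and sars-1 (0.30, SE 0.09), with 177, 189 and 190 CPM and then 237, 234 and 213 CPM. The median of all genes shifted by 0.16 over the same hours. Over these hours the intestine markers went from a range of 52028 to 60682 CPM down to 22020 to 27253 CPM, the hypodermis markers from 733 to 862 CPM down to 28.5 to 47.1 CPM, and the muscle markers from 1550 to 2289 CPM down to 585 to 775 CPM, and their part in the result was not tested. The count became 0 without mock 8 h replicate 1 or mock 48 h replicate 1, 1 without mock 48 h replicate 2 and 4 without mock 8 h replicate 3.

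**Figure D5:**
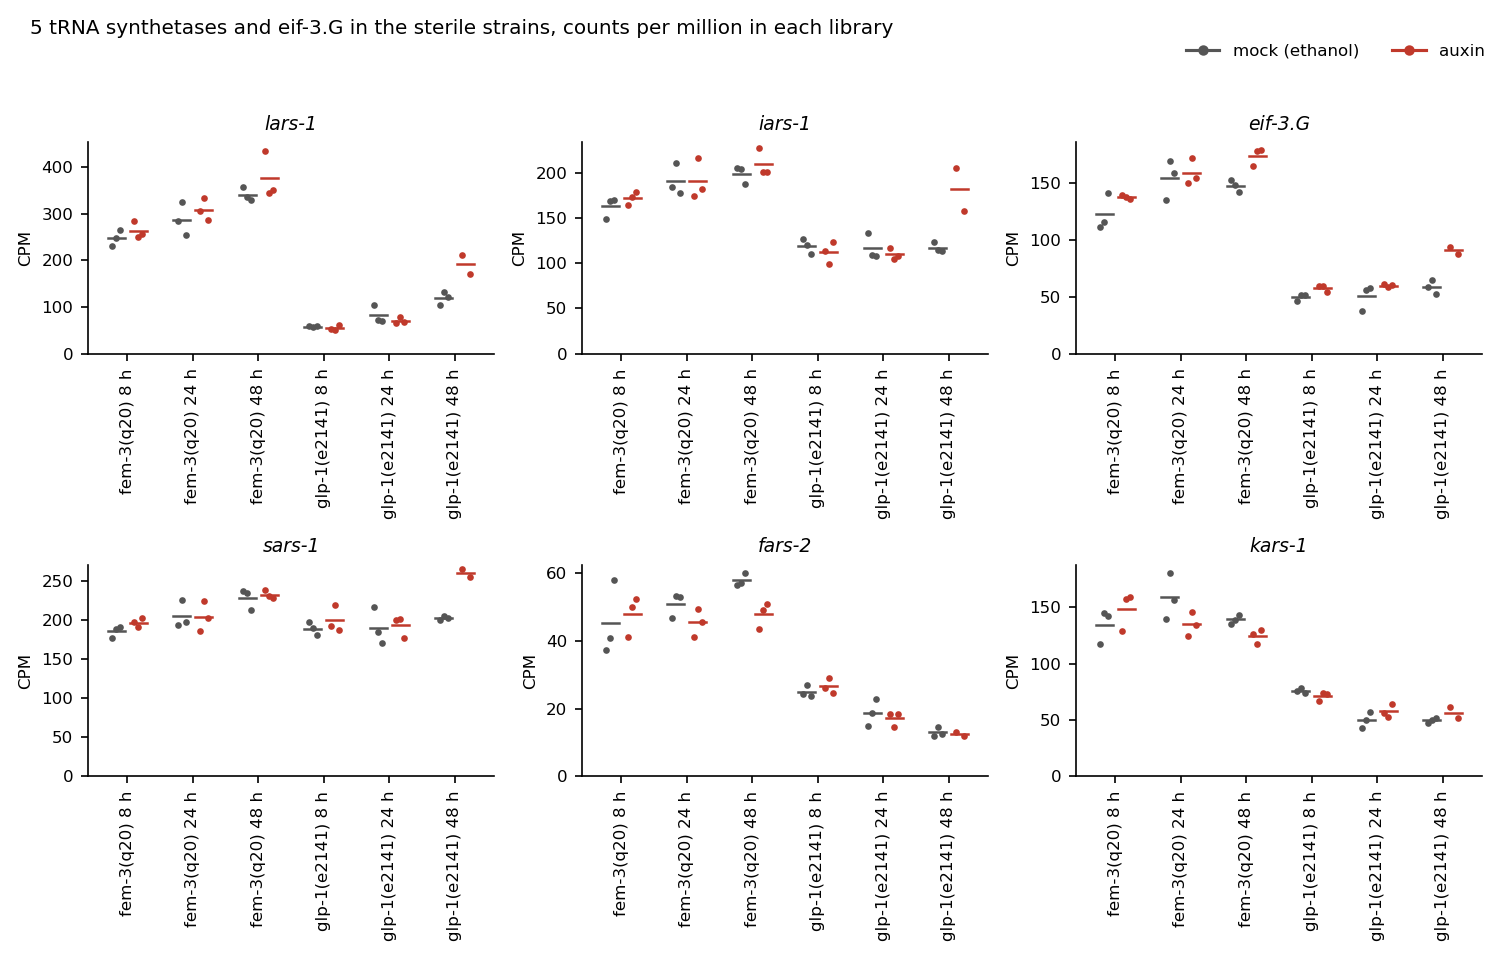
Levels of 5 tRNA synthetases and of eif-3.G in each library of the sterile strains (points, CPM, on linear axes from 0) by hour, with the mean of each group as a line; grey marks mock and red auxin. In glp-1(e2141) on mock lars-1 lies between 56.2 and 59.0 CPM at 8 h and between 104.5 and 132 CPM at 48 h, while fars-2 and kars-1 fall, and the auxin libraries at 48 h lie above mock for lars-1, iars-1, eif-3.G and sars-1.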

How the data were processed

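RNA from whole animals was enriched for poly(A) and sequenced in stranded libraries. Per the methods and processing notes, the authors aligned reads with STAR to WBcel235, counted them on genes with featureCounts and normalized with edgeR. The deposited values are log2 CPM with a prior, in 3 tables (10763 genes at 8 h and 10307 at 24 h in the fertile strains, 15364 in the sterile strains). A column of the 24 h table marks the authors' own differential genes and was not used. The log and the prior were undone to give CPM, and 100% of values were whole multiples of 1 read (tolerance 0.1 read). The reads serve for depth and precision weights only.

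The tested genes (10739, 10245 and 14269) reached 1 CPM or more in 25% or more of a table's libraries and were fitted on the deposited log2 values with limma 3.58.1 in R 4.3.3 (one mean per group of a table, trended variance, two-sided). Members and lists were chosen with earlier results of these data known. Named were all eef-, ife- and ifg-1 genes and the called members with the largest changes. Annotation came from Ensembl, and no sequence or product name was used. The fits were tested on simulated data. The depth gives 3 reads a level of 0.133 to 0.366 CPM, for counting error only.

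Samples with the same replicate number were said to deviate together where every pair of libraries correlated above 0.1 after group means were removed. The reported calls use no replicate block in any comparison, also where this held, and fits with the block are alternatives. This held in JTL611 against CA1200 on auxin at both hours, in CA1200 between agents at 8 h, in the other fertile comparisons at 24 h, and in fem-3(q20) between agents at 8 and 24 h. Alternatives were a pseudocount of 0.5, no filter, only the groups compared, the replicate block, median centring, precision weights (voom), the agent tag, libraries with agreeing labels, and each library left out. The groups compared with a replicate block were added after seeing the data.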

Additional observations from a re-analysis of the deposited data

Results flagged for a closer look

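The results below passed a test of the difference between the effects of auxin at different hours. Of all genes tested in glp-1(e2141), 1.81% passed it. In glp-1(e2141) the effect of auxin on lars-1 was 0.76 higher at 48 h than at 8 h on the log2 scale (SE 0.20, adjusted p = 0.041 in limma), and that on iars-1 was 0.71 higher (SE 0.16, adjusted p = 0.018 in limma). Over the libraries left out in turn, the difference ran from 0.60 to 0.92 for lars-1 and from 0.52 to 0.90 for iars-1. Neither was called without auxin 48 h replicate 1, auxin 8 h replicate 2 or mock 8 h replicate 1, with only the groups compared, by the agent tag, or with agreeing labels.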

How the results depend on the processing

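All counts are of the 68 members called. With only the groups compared in the fit, 0 were called for depletion in glp-1(e2141) at 48 h (6 as reported), 0 and 8 for the change over time in mock-treated glp-1(e2141) to 24 and 48 h (9 and 13), 3 for depletion in fem-3(q20) at 48 h (0), 7 and 5 for the change over time in mock-treated fem-3(q20) (0 and 2), and 0 for the difference of the auxin effect between 8 and 48 h in glp-1(e2141) (2). With the replicate block added to that fit, the same counts were 0, 0, 8, 2, 12, 7 and 0, and depletion called 1 in JTL611 at 24 h, and in the fem-3(q20) strain 1 at 8 h and 14 at 24 h (0 each). The block in the fit of the whole table left every count within 1.5 times of that reported.

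By the agent tag, and in the libraries with agreeing labels, 0 members were called for depletion in glp-1(e2141) at 48 h and 0 for its change between hours, and tars-1 had -0.075 by the tag. Agreeing labels gave 1 and 5 for time in mock-treated glp-1(e2141), 0 for time in fem-3(q20) to 48 h and 34 for the strains at 8 h (55). They leave 1 library in each fem-3(q20) group, as leaving out a library does in glp-1(e2141) on auxin at 48 h, and the lone library is assumed to vary like the other groups. Precision weights gave 1 for depletion in fem-3(q20) at 24 h, 10 and 4 for its change over time and 1 for the difference between strains at 48 h. A pseudocount of 0.5 gave 2 for time in fem-3(q20) to 24 h and 1 for that difference. Centring gave 0 for time in fem-3(q20) to 48 h and 1 for the difference between hours in glp-1(e2141).

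Leaving out 1 library, the ranges were 0 to 1 for depletion in glp-1(e2141) at 8 and at 24 h, 0 to 5 at 48 h, 5 to 18 and 8 to 16 for its time on mock, 0 to 4 for each time change in fem-3(q20), 0 to 1 for the difference between strains at 48 h and 0 to 3 for that between hours. The strain counts were 54 to 55, 60 to 65 and 58 to 60.

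Strain differences of elongation factors turned sign. Centred values were 0.41, 0.61 and 0.62 for eef-1A.1, eef-1B.2 and eef-1G at 8 h, 0.46, 0.45 and 0.72 for eef-1B.2, eef-1G and eef-2 at 24 h, and 0.36, 0.90, 0.41 and 0.62 for eef-1A.1, eef-1B.1, eef-1B.2 and eef-1G at 48 h. At 8 h eef-1B.1 had -0.019 by the agent tag and -0.0052 with agreeing labels. Without 1 library, eef-2 ran from -0.052 to 0.050 at 8 h, eef-1B.1 from -0.031 to 0.068, from -0.10 to 0.10 and from -0.24 to 0.050 at the 3 hours, and eef-1A.2 from -0.055 to 0.60 at 24 h. Apart from the added scaling and fewer samples that these settings bring by construction, the cause was not tested. A level under that of 3 reads, as for ife-5 in some libraries of glp-1(e2141), cannot be told from 0.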
